A study of Mus with 8 samples.

Results

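The vascular endothelial growth factor (VEGF) family was examined in cultured smooth muscle cells of the mouse aorta through 8 genes, out of 20289 genes with a probe on the arrays. The members were the 5 ligand genes Vegfa, Vegfb, Vegfc, Vegfd (Figf in older annotation) and Pgf and the 3 receptor genes Kdr, Flt1 and Flt4. They were found by matching the gene symbol of each probe in the platform annotation, old or current, to these names. This gave 14 probes, 7 for ligands and 7 for receptors. 7 of the 8 genes were tested, each through a probe that 4 or more of the 8 arrays detected. Kdr had no such probe.

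Total RNA of 8 cultures was hybridised to Illumina bead arrays, 1 array per culture. All cultures came from the aortas of male C57 black 6 mice aged 8 weeks that carried a floxed Tie2 gene (Tek), and all were grown at passage 1 in DMEM with 15% fetal calf serum and 1% P/S. The 4 cultures called WT lacked Cre. The 4 called KO carried Cre driven by the SM22α promoter, which is active in smooth muscle, so that deletion is limited to cells in which this promoter is or was active, and an effect of Cre itself cannot be told apart from loss of Tie2. Whether a culture came from 1 mouse or from pooled mice is not stated in the labels, and the p-values therefore cover only the variation among the 8 cultures. The 4 WT arrays and KO replicates 1 and 2 lay on slide 1, and KO replicates 3 and 4 on slide 2.

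VEGF ligands are secreted dimers that bind receptor tyrosine kinases. VEGF-A acts mainly through VEGFR2 (Kdr), which drives endothelial growth and permeability, while VEGFR1 (Flt1) binds VEGF-A, VEGF-B and placental growth factor (Pgf) and often acts as a trap for them. VEGF-C and VEGF-D act mainly through VEGFR3 (Flt4) on lymphatic vessels. In the vessel wall smooth muscle cells are known as a source of VEGF-A, while the receptors are studied mostly in endothelial cells. The contrast of KO with WT asks how these transcripts stand once Tie2 is deleted through smooth muscle Cre.

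Array medians of the scanner intensity ranged from 94.7 to 128.1, and an array detected 44.9% to 49.5% of its probes, counting a detection p-value under 0.05. Tek was 6.44, 7.42, 6.66 and 6.35 across the WT cultures in replicate order, against 4.78, 5.56, 5.36 and 5.26 across the KO cultures on the scale used throughout, the log2 of the intensity after background correction and quantile normalization, so that each KO culture was below each WT culture. Of 12 smooth muscle markers, 11 were tested and all 11 were higher in KO by sign (median log2 fold change 0.51). 2, Mylk and Itga8, had an unadjusted p under 0.05 and 0 passed the adjusted threshold. Myh11, smooth muscle myosin, and Lmod1, an actin-binding leiomodin, both chosen after their values were seen, had log2 fold changes of 1.18 (standard error 0.58) and 1.12 (standard error 0.57). Their unadjusted p in limma was 0.074 and 0.085. Both were lowest in WT replicate 2, at 5.23 and 5.77, against 7.69 and 7.83 in the next lowest WT cultures. The summed log2 level of the markers was 15.10 to 15.79 in WT and 15.49 to 15.80 in KO, and Acta2, its largest term, differed by 0.01. The part of smooth muscle content in the VEGF values was not tested. Of 11859 genes tested with limma, 0% passed an adjusted p of 0.05 and 5.74% had an unadjusted p under 0.05. The latter were made up of 2.61% higher and 3.13% lower in KO. WT and KO values were fully separate for 3.28%, made up of 1.61% higher and 1.67% lower. 49.7% of genes were higher in KO by sign.

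Ligand transcripts were detected throughout the cultures, while most receptor probes were detected on some arrays or on none. Each of the 5 ligand genes had a probe detected on all 8 arrays. 6 of the 7 ligand probes were detected on all arrays and the remaining 1, a further probe of Vegfa, on 0. Of the 7 receptor probes, 1 was detected on all 8 arrays, a probe of Flt1. Another 4 were detected on some arrays and 2 on 0. Over the 35784 probes with a gene, 38.8% were detected on all 8 arrays and 23.0% on 0. Among 937 unannotated probes numbered like control probes, 14.4% were called detected on an average array, so a probe detected on a few arrays can still lie at background.

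**Figure D1:**
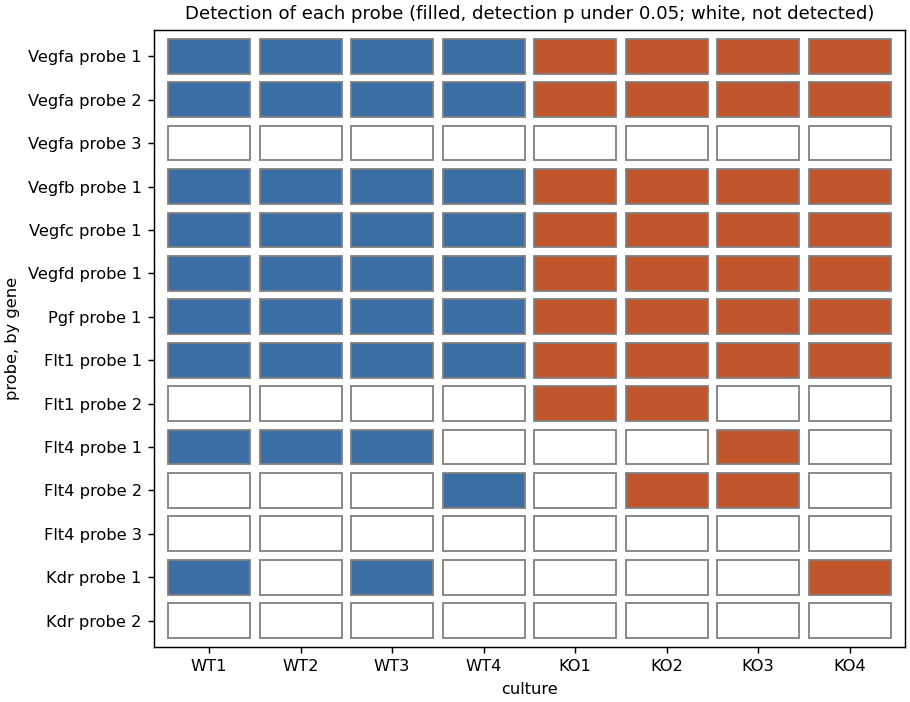
Detection of the 14 VEGF probes (rows) in the 8 cultures (columns), filled where the detection p-value is under 0.05 (blue WT, orange KO) and white otherwise. 6 of 7 ligand probes and 1 of 7 receptor probes are filled in all 8 cultures, and the 2 Kdr and 3 Flt4 probes are filled in none or some.

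None of the 7 tested VEGF genes differed between WT and KO beyond the spread of the cultures. 0 passed an adjusted p of 0.05, 0 had an unadjusted p under 0.05 in limma, and in 0 of 7 did the groups fail to overlap, against the 0%, 5.74% and 3.28% of all tested genes. By sign 4 were higher and 3 lower in KO, with a median log2 fold change of 0.06, against -0.002 over all genes. Log2 fold changes ran from -0.55 for Flt4 to 0.72 for Pgf, and every 95% interval included 0. The exact permutation test allows no p below 0.0286 with 4 cultures against 4, and the members gave 0.257 or more. Tek, the floxed gene, did not pass the adjusted threshold either, with an unadjusted p of 0.00047 and an adjusted p of 0.81 in limma. That 0 members passed this threshold therefore does not show that they were unchanged.

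The intervals were wide, and the members varied between cultures of the same group. The SD within a group is given here pooled over WT and KO. It was 0.48 for Vegfa, 0.57 for Vegfb, 0.53 for Vegfc, 0.57 for Flt1 and 0.55 for Flt4. The median over all tested genes was 0.35. The pooled SD was 0.87 for Vegfd and 0.96 for Pgf, larger than in 94.4% and 96.0% of genes. The groups differed in spread, with an SD of 0.55 in WT and 1.09 in KO for Vegfd. For Pgf the SD was 1.28 in WT and 0.46 in KO. Error between the beads of a probe was much smaller. For the probes that represent the 6 members detected on all arrays it corresponded to a standard error of 0.034 to 0.095 on the log2 scale of the scanner intensity, from 20 to 59 beads per array. That scale is not background-corrected, so the corrected values of dim probes carry a larger bead error.

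**Figure D2:**
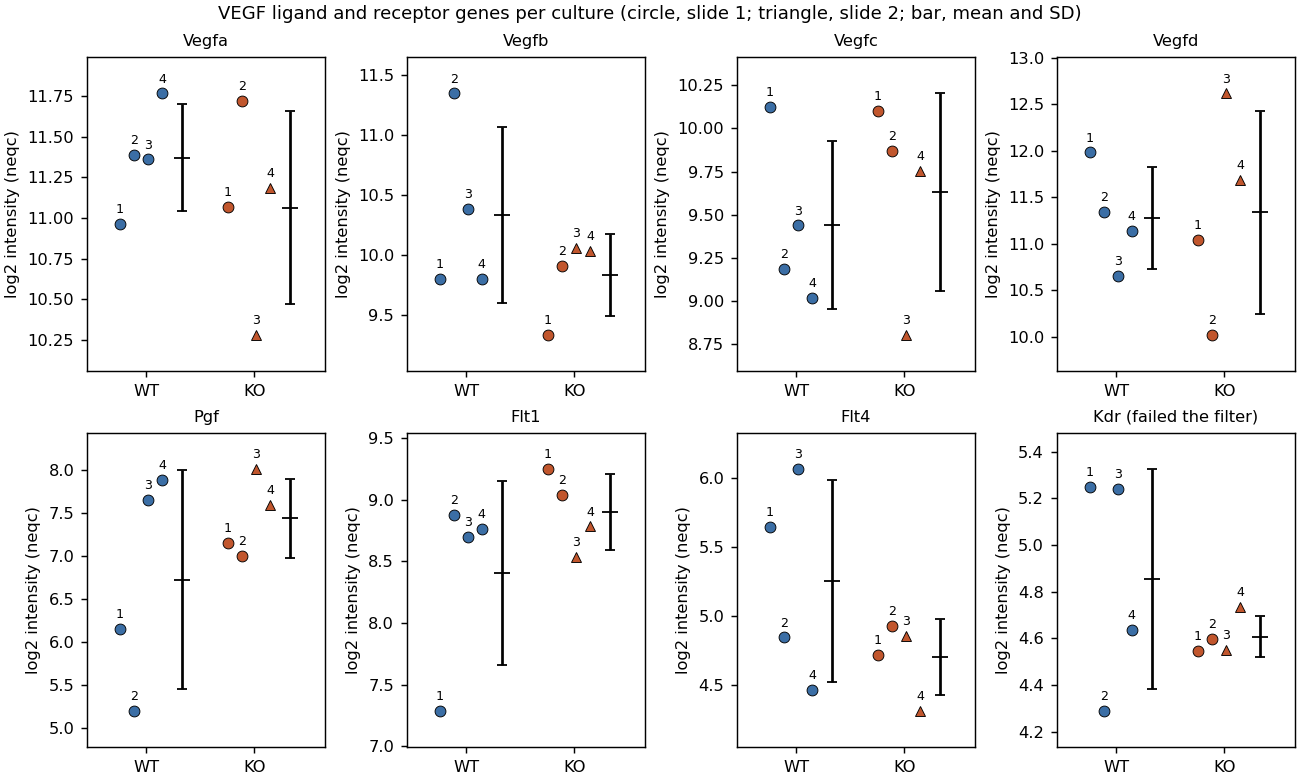
Log2 intensity (vertical axis) of the 8 VEGF genes in each WT (blue) and KO (orange) culture, numbered by replicate, with circles for slide 1 and triangles for slide 2 and the group mean and SD beside them. The groups overlap in every panel, as for Vegfd, where KO spans 10.02 to 12.62 and WT 10.65 to 11.98.

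Vegfa encodes the main angiogenic ligand. Through its brightest probe (ILMN_2484527) the log2 intensity was 10.96, 11.39, 11.36 and 11.77 across the WT cultures in replicate order, against 11.07, 11.72, 10.28 and 11.19 across the KO cultures. KO replicate 3 was the lowest of the 8 cultures and WT replicate 4 the highest, with KO replicate 2 close behind. The means were 11.37 ± 0.33 (SD, n = 4) among WT cultures and 11.06 ± 0.60 (SD, n = 4) among KO cultures. The log2 fold change was -0.31 (standard error 0.31), with a 95% interval of -1.01 to 0.39, a limma adjusted p of 0.86 and an exact permutation p of 0.43. This value was 0.02 within slide 1, which leaves out KO replicates 3 and 4, and -0.05 without KO replicate 3 alone.

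A second Vegfa probe (ILMN_3121255), also detected on all 8 arrays, had the opposite sign. It read 8.57, 9.19, 8.90 and 9.30 across the WT cultures in replicate order, against 9.04, 9.39, 8.68 and 9.30 across the KO cultures. The difference, KO minus WT, was 0.11, with an exact permutation p of 0.66. The 2 probes nonetheless ordered the cultures alike, with Pearson's r of 0.76 (exact permutation p = 0.022) and Spearman's rho of 0.74 (exact permutation p = 0.046) over 8 cultures. r was 0.70 without the 2 cultures farthest from the median and 0.86 within slide 1. KO replicate 2 and WT replicate 4 were among the highest 3 cultures with both probes, and KO replicate 3 and WT replicate 1 were the lowest 2. The platform annotation lists a different transcript for each of these 2 probes, but whether they tell Vegfa transcripts apart is not known here. The third probe was not detected on any array and lay between 4.15 and 4.62.

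Vegfb encodes a ligand of VEGFR1. Its log2 intensity was 9.80, 11.35, 10.38 and 9.80 across the WT cultures in replicate order, against 9.33, 9.91, 10.06 and 10.04 across the KO cultures. WT replicate 2 was the highest culture and KO replicate 1 the lowest. The mean was 10.33 ± 0.73 (SD, n = 4) among WT cultures and 9.83 ± 0.34 (SD, n = 4) among KO cultures. KO relative to WT gave a log2 fold change of -0.50 (standard error 0.36), with a limma adjusted p of 0.83 and an exact permutation p of 0.31. Without WT replicate 2 it was -0.16.

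Pgf encodes placental growth factor, the other ligand that binds VEGFR1 and not VEGFR2. It had the largest difference of the 8 genes by size with the main background correction, and not in the authors' normalized values, without background correction, with control-like probes as negative controls or within slide 1. Its log2 intensity was 6.15, 5.20, 7.66 and 7.89 across the WT cultures in replicate order, against 7.15, 7.00, 8.02 and 7.59 across the KO cultures. WT replicates 1 and 2 lay below all 4 KO cultures, while WT replicates 3 and 4 lay within the KO range. The 8 cultures spanned 7.06-fold here, and 126.8 to 364.2 in the authors' normalized intensities. The mean was 6.73 ± 1.28 (SD, n = 4) among WT cultures and 7.44 ± 0.46 (SD, n = 4) among KO cultures. KO relative to WT gave a log2 fold change of 0.72 (standard error 0.58), with a 95% interval of -0.60 to 2.03, a limma adjusted p of 0.84 and an exact permutation p of 0.34. It was 0.21 without WT replicate 2 and 1.11 without WT replicate 4.

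The size of the Pgf difference also depended on the background correction, and its intensity in WT replicates 1 and 2 lay nearest to the medians of those arrays, 94.7 and 112.4. Its scanner intensities were 128.1, 125.0, 331.9 and 337.7 across the WT cultures in replicate order, against 251.9, 239.2, 344.2 and 267.0 across the KO cultures. In the authors' normalized values the log2 fold change was 0.37, and with control-like probes as the negative controls it was 0.06. The 2 WT cultures with low Pgf, replicates 1 and 2, had the highest summed log2 level of 16 macrophage and leukocyte markers, 15.45 and 15.90, against 12.55 and 13.66 in WT replicates 3 and 4 and 12.05 to 15.03 in KO. The part of such cells in the level of Pgf was not tested. In bulk RNA, fewer cells of a type and less RNA per cell cannot be told apart.

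Vegfc encodes a lymphatic growth factor. Its log2 intensity was 10.12, 9.19, 9.44 and 9.02 across the WT cultures in replicate order, against 10.10, 9.87, 8.80 and 9.75 across the KO cultures. WT replicate 1 and KO replicate 1 were the 2 highest cultures and KO replicate 3 the lowest. The mean was 9.44 ± 0.49 (SD, n = 4) among WT cultures and 9.63 ± 0.57 (SD, n = 4) among KO cultures, a log2 fold change of 0.19 (standard error 0.33) with a limma adjusted p of 0.92. The exact permutation p was 0.60. The log2 fold change was 0.55 within slide 1 and 0.47 without KO replicate 3.

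Vegfd encodes the second ligand of VEGFR3, and it varied more than any other ligand among the KO cultures. Its log2 intensity was 11.98, 11.34, 10.65 and 11.14 across the WT cultures in replicate order, against 11.04, 10.02, 12.62 and 11.68 across the KO cultures. The highest and the lowest of the 8 cultures, KO replicates 3 and 2, were both KO, and they differed 6.06-fold. The means were 11.28 ± 0.55 (SD, n = 4) among WT cultures and 11.34 ± 1.09 (SD, n = 4) among KO cultures. The log2 fold change was 0.06 (standard error 0.52), with a limma adjusted p of 0.98 and an exact permutation p of 0.97. Both KO cultures on slide 2 were above both KO cultures on slide 1, and the difference within slide 1 was -0.75 with an exact permutation p of 0.27 over 15 assignments. It was -0.37 without KO replicate 3 and 0.50 without KO replicate 2.

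**Figure D3:**
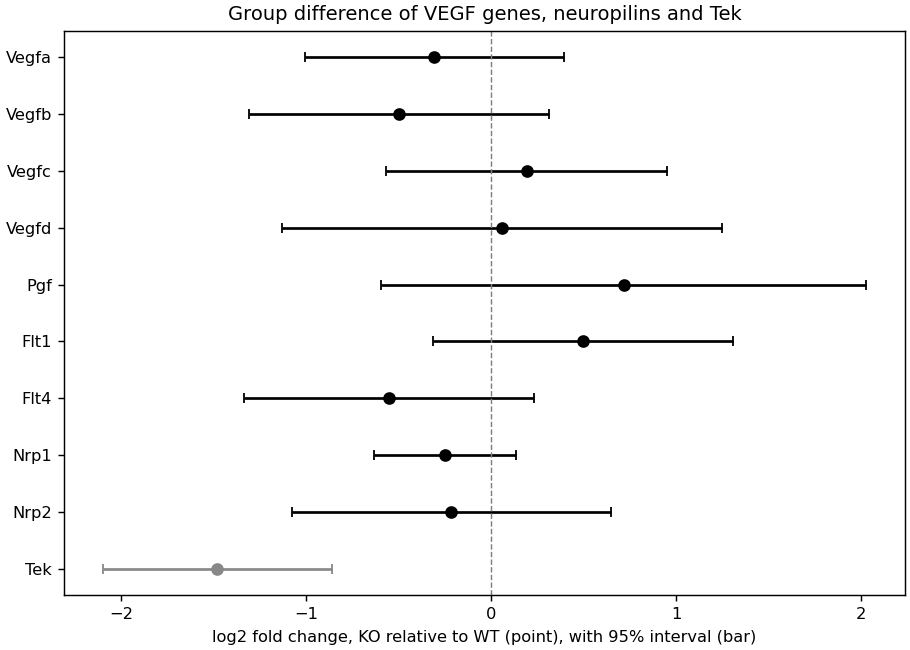
Log2 fold change of KO relative to WT (horizontal axis) with its 95% interval for the 7 tested VEGF genes, both neuropilin genes and Tek, the floxed gene. The intervals of the VEGF genes and neuropilins include 0, and that of Tek runs from -2.10 to -0.86.

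Flt1 was the 1 receptor gene with a probe detected in every culture. Its log2 intensity was 7.29, 8.87, 8.70 and 8.76 across the WT cultures in replicate order, against 9.25, 9.04, 8.54 and 8.78 across the KO cultures. WT replicate 1 stood below the other 7 cultures, which lay within 8.54 to 9.25. The mean was 8.40 ± 0.75 (SD, n = 4) among WT cultures and 8.90 ± 0.31 (SD, n = 4) among KO cultures. KO relative to WT gave a log2 fold change of 0.50 (standard error 0.36), with a 95% interval of -0.31 to 1.31, a limma adjusted p of 0.83 and an exact permutation p of 0.26. Without WT replicate 1 it was 0.12, and within slide 1 it was 0.74. A second Flt1 probe was detected on 0 of 4 WT arrays and on 2 of 4 KO arrays, replicates 1 and 2. It read 4.71, 4.47, 4.61 and 4.31 across the WT cultures in replicate order, against 5.19, 5.46, 4.13 and 4.15 across the KO cultures. The log2 difference was 0.21, and -0.04 in the authors' normalized values. Its KO cultures on slide 1 lay above all WT cultures and those on slide 2 below them. Flt1 has a soluble form in addition to the membrane receptor. The platform annotation lists the same transcript for both probes, and which form each probe reads is not known here.

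Flt4, the receptor of VEGF-C and VEGF-D, lay close to background. Its brightest probe (ILMN_1219072) passed the filter narrowly, with detection on 3 of 4 WT and 1 of 4 KO arrays. It read 5.64, 4.84, 6.06 and 4.46 across the WT cultures in replicate order, against 4.71, 4.92, 4.85 and 4.31 across the KO cultures. WT replicates 1 and 3 were above all other cultures. The log2 fold change was -0.55 (standard error 0.35), with a limma adjusted p of 0.83 and an exact permutation p of 0.26. It was -0.18 in the authors' normalized values, -0.02 with control-like probes as negative controls and -0.28 without WT replicate 3. Without WT replicate 4 it was -0.82, with an unadjusted p of 0.031 and an adjusted p of 0.84 in limma. A second probe, detected on 1 WT and 2 KO arrays, gave a difference of 0.56, with KO replicate 2 highest at 6.77. The third was not detected on any array. The highest culture was WT replicate 3 with the first of these probes and KO replicate 2 with the second.

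Kdr, the main signalling receptor of VEGF-A, was not measured well enough to compare. The brighter of its 2 probes (ILMN_2665788) was detected in 2 of the 4 WT cultures and 1 of the 4 KO cultures and therefore failed the filter. It read 5.25, 4.29, 5.24 and 4.64 across the WT cultures in replicate order, against 4.55, 4.60, 4.55 and 4.73 across the KO cultures, a difference of -0.25 with an exact permutation p of 0.34. WT replicates 1 and 3 were the highest of the 8 cultures. The other probe was not detected on any array. These values do not show that Kdr RNA was absent.

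Endothelial markers are given beside the receptors, because these genes are best known from endothelium. Of 20 endothelial markers 15 were tested, 10 of them higher and 5 lower in KO by sign. Their summed log2 level was 11.02 to 11.86 in WT and 11.64 to 12.17 in KO. The lowest sum, 11.02, was in WT replicate 2, while Flt1 was lowest in WT replicate 1, where the sum was 11.58. Eng and Emcn were the largest terms of this sum in every culture, so it says little about the dimmer markers. Of these, Cdh5, Robo4, Plvap and Ramp2 were lower in WT replicate 1 than in WT replicate 2, and the other tested ones higher. Some of these differences were small, and the comparison was made after the values were seen. Erg, an endothelial transcription factor, was not detected on any array, and Tie1, Vwf, Icam2 and Ecscr failed the filter. Of 6 lymphatic endothelial markers 4 were tested, with summed log2 levels of 13.21 to 13.66 in WT and 13.12 to 13.62 in KO. Pdpn, which other cells also express, made up most of that sum at 13.03 to 13.65 over the 8 cultures. The more specific Prox1 and Lyve1 averaged 4.76 and 5.47 in WT and 4.72 and 4.89 in KO, each detected on some arrays of both groups. The part of endothelial cells in the levels of Flt1, Flt4 and Kdr was not tested.

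Relations among the 6 members detected on all arrays were examined across the cultures. Among their 15 pairs, Pearson's r ran from -0.83 for Vegfa with Vegfd to 0.34 for Vegfa with Flt1, and 0 pairs passed a Benjamini-Hochberg adjusted p of 0.05. The inverse relation of Vegfa and Vegfd had an exact permutation p of 0.014 for r and an adjusted p of 0.20. Spearman's rho was -0.67 with an exact permutation p of 0.083. r was -0.83 without KO replicate 3 and WT replicate 4, the 2 cultures farthest from the median of Vegfa, and -0.64 over the 6 cultures of slide 1. With the second Vegfa probe, a relation examined after the first was seen, r was -0.64 with an exact permutation p of 0.091, rho was -0.52 with an exact permutation p of 0.20, and r was -0.02 without the 2 cultures farthest from that probe's median.

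**Figure D4:**
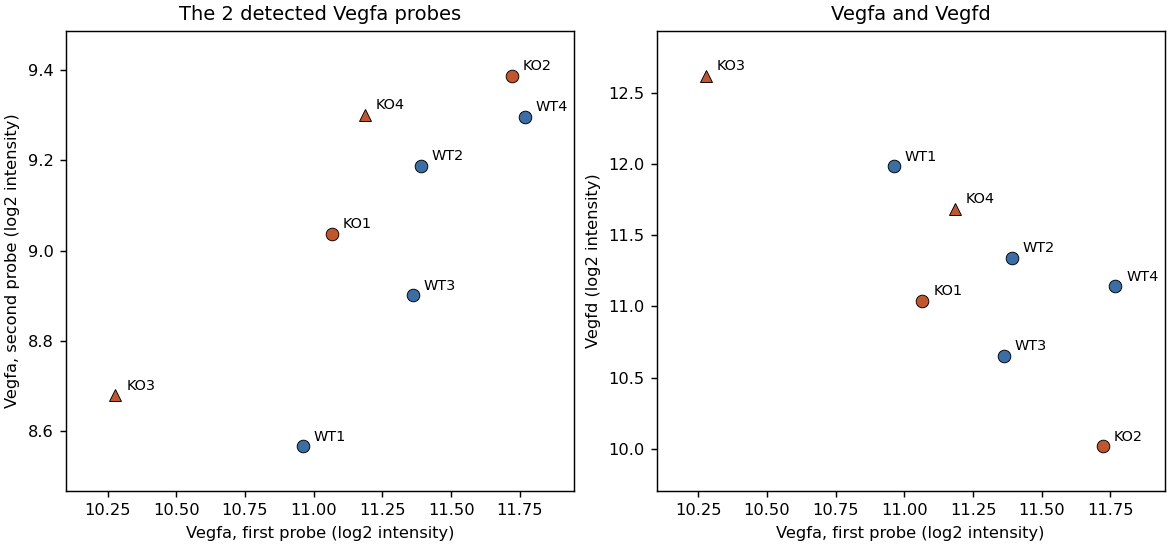
Log2 intensity of the first Vegfa probe (horizontal axes) against the second Vegfa probe (left) and against Vegfd (right) in the 8 cultures (blue WT, orange KO, triangles slide 2). Both Vegfa probes are low in KO replicate 3 and WT replicate 1, and Vegfd is highest in these 2 cultures.

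For each of these 6 members, the genes with the most similar profile over the 8 cultures were listed by Pearson's r, as a description. With 11859 genes and 8 cultures, high values of r arise among unrelated genes. For Vegfa they were Ndufab1, a mitochondrial acyl carrier protein, Mcm2, a subunit of the replicative helicase, and Rhobtb2 (r = 0.98, 0.95 and 0.95). For Vegfb they were Zfp655, Rasa3 and Ap5b1 (r = 0.99, 0.98 and 0.98). For Vegfc they were Gpatch3, Eya4 and Phrf1 (r = 0.97, 0.95 and 0.95). For Vegfd they were Stoml1, Rdm1 and Slc22a18 (r = 0.99, 0.98 and 0.97), and for Pgf Mtmr4, Zswim4 and Tjap1 (r = 0.98, 0.97 and 0.97). For Flt1 they were Gm5292, Hoxc9 and Dzip3 (r = 0.93, 0.92 and 0.92), with Spearman's rho of 0.86, 0.62 and 0.52. Hoxc9, a homeobox gene of posterior body position, stood at 5.26 in WT replicate 1, the culture with the lowest Flt1, and at 10.04 to 11.03 in the other 7. None of the 18 was itself a VEGF gene or a member of the lists described next.

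Across the wider VEGF pathway, 0 genes of 5 lists passed the adjusted threshold, against 0% of all genes tested, while 4 had an unadjusted p under 0.05 in limma, a call made for 5.74% of all genes. The groups did not overlap for 2 list genes, Itgav and Nck1, and for 3.28% of all genes. The first list held the co-receptors and cell surface partners, of which 21 of 23 were tested, with a positive sign in KO for 12, a negative one for 9 and a median log2 fold change of 0.03. 2 had an unadjusted p under 0.05. The neuropilins bind VEGF together with its receptors. Nrp1 stood at 11.55, 12.17, 11.80 and 11.75 across the WT cultures in replicate order, against 11.63, 11.40, 11.58 and 11.66 across the KO cultures. Its log2 fold change was -0.25 (standard error 0.17), with a limma adjusted p of 0.83 and an exact permutation p of 0.11. A second probe gave -0.24, and without WT replicate 2 the first gave -0.13. The log2 fold change of Nrp2 was -0.22 through its brightest probe and 0.23 through a second one. The brightest read 6.58, 7.12, 6.02 and 6.66 across the WT cultures in replicate order, against 6.87, 7.15, 5.72 and 5.77 across the KO cultures, with both KO cultures of slide 2 below the other 6, and gave 0.42 within slide 1.

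Ptprb, a receptor phosphatase of endothelial cells that acts on VEGFR2 and Tie2, had the smallest p of the co-receptor list. It stood at 7.82, 7.16, 6.79 and 7.29 across the WT cultures in replicate order, against 6.93, 6.11, 6.45 and 5.95 across the KO cultures, with the highest KO culture above the lowest WT culture. Its log2 fold change was -0.90 (standard error 0.28), with an unadjusted p of 0.011 and a limma adjusted p of 0.83. It was -0.47 in the authors' normalized values and -0.10 with control-like probes as negative controls. Itgav, the αv integrin subunit, stood at 7.93 to 8.48 in WT and 8.55 to 9.45 in KO, and its groups did not overlap. Its log2 fold change was 0.54 (standard error 0.23) and its limma adjusted p 0.83. A second probe gave 0.59, and without KO replicate 1 the first gave 0.35. Ptpn1, a phosphatase of VEGFR2, Thbs1, the angiogenesis inhibitor thrombospondin-1, and Sdc4, a heparan sulphate proteoglycan, gave log2 fold changes of -0.47 (standard error 0.22), 0.66 (standard error 0.31) and 0.34 (standard error 0.19).

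Of the 50 genes listed for signalling below the receptors, 37 were tested, with a positive sign for 19, a negative one for 18 and a median log2 fold change of 0.002. 1 had an unadjusted p under 0.05. It was Map2k1, the kinase MEK1 of the MAP kinase cascade, at 9.24 to 9.64 in WT and 8.07 to 9.45 in KO. Its log2 fold change was -0.73 (standard error 0.30) and its limma adjusted p 0.83. Its 2 lowest cultures were KO replicates 3 and 4, and within slide 1 the value was -0.20. The groups did not overlap for Nck1, an adaptor that links receptors to actin. It stood at 10.34 to 10.55 in WT and 10.06 to 10.17 in KO, with a log2 fold change of -0.27, a standard error of 0.13 and a limma adjusted p of 0.83. Nos3, the endothelial nitric oxide synthase activated by VEGF, had a log2 fold change of 0.50 (standard error 0.33) through a probe detected in 2 of the 4 WT cultures and all KO cultures. It is also 1 of the endothelial markers above.

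Of 25 regulators of Vegfa expression 22 were tested, 12 higher and 10 lower by sign, with a median of 0.04 and 0 with an unadjusted p under 0.05. Hif1a, the oxygen-regulated activator of Vegfa, chosen after its values were seen, had a log2 fold change of -0.05 (standard error 0.27). Vhl, which marks HIF proteins for degradation, stood at -0.66 with a standard error of 0.36. Hif3a and Epas1 (HIF-2α) gave 0.56 (standard error 0.31) and 0.75 (standard error 0.43), the latter from a probe detected in 1 WT culture and 3 KO cultures. Epas1 was highest in KO replicate 3, without which it stood at 0.27, and it was 0.03 with control-like probes as negative controls. Within slide 1 the value of Epas1 was 0.28 and that of Vhl -0.16.

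Of 22 genes that low oxygen induces together with Vegfa, 19 were tested, 9 higher and 10 lower by sign, with a median of -0.02. Higd1a, a mitochondrial protein, was the 1 gene with an unadjusted p under 0.05, with a log2 fold change of -0.87, a standard error of 0.34 and a limma adjusted p of 0.83. It was -0.31 in the authors' normalized values and -0.04 with control-like probes as negative controls. Mxi1, a MYC antagonist, and Pfkfb3, a regulator of glycolysis, gave -0.56 (standard error 0.34) and 0.57 (standard error 0.38). The Pfkfb3 probe was detected in 2 of the 4 WT cultures and all KO cultures. Slc2a1, Pgk1 and Ldha, a glucose transporter and 2 glycolytic enzymes picked with their values in view, gave 0.03 (standard error 0.30), -0.05 (standard error 0.19) and 0.17 (standard error 0.19).

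The last list held 17 genes that VEGF raises in endothelial cells, of which 9 were tested. 5 were higher and 4 lower in KO by sign, with a median of 0.37 and 0 with an unadjusted p under 0.05. Ets1, an endothelial transcription factor also found in smooth muscle, stood at 0.51 with a standard error of 0.28, Nid2, a basement membrane protein, at 0.45 with 0.28, and Nr4a2, an orphan nuclear receptor, at 0.37 with 0.24. Further probes of Ets1, detected on 4 and 7 arrays, gave 0.405 and 0.17. The median of this list was 0.01 with control-like probes as the negative controls.

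**Figure D5:**
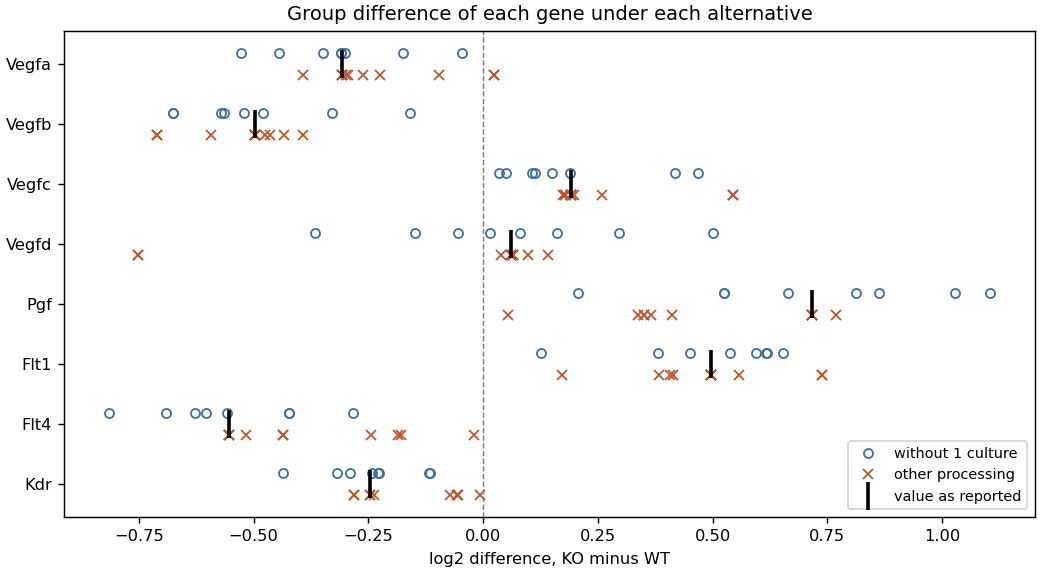
Log2 difference of KO minus WT (horizontal axis) for each of the 8 VEGF genes as reported (bar), without each culture in turn (circles) and under the other processing alternatives (crosses). The values of Vegfa and Vegfd lie on both sides of 0, those of Vegfd from -0.75 to 0.50, and the remaining genes keep their sign.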

How the data were processed

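Per the file headers, the deposited scanner table gives for 46237 probes and 8 arrays a detection p-value, the count of beads, and the mean and SD of their intensity. These intensities were not normalized. A second deposited table holds intensities that the authors normalized between arrays by a method that the sources used here do not give. In the scanner table, the printed probe identifiers do not belong to the values beside them (Spearman correlation with the second table -0.0083 to -0.0047), so rows were matched by their ranks on the 8 arrays, which paired 46237 rows one to one (Spearman at least 0.9999). Genes were named from the platform annotation, and older symbols were replaced by current RefSeq ones (GRCm38.p6). Coordinates are left out.

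Intensities were background-corrected, quantile-normalized and logged by the neqc function (limma 3.58.1, R 4.3.3; offset 16, background from the detection p-values). Those p-values may not come from negative controls, so the correction of dim probes is uncertain. Probes were kept where 4 or more of the 8 arrays gave a detection p-value under 0.05, and the brightest kept probe stood for its gene, giving 11859 genes. Of these, 4439 had several kept probes. Groups were compared with lmFit and eBayes, two-sided, with Benjamini-Hochberg adjustment over all genes, and single genes also with a two-sided exact permutation test. Fold changes are KO relative to WT. The number of arrays limits the precision.

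The members and gene lists were chosen with earlier results of these data known. Named were the 8 members, both neuropilin genes, Tek, the 5 genes of the co-receptor list and the 3 genes of each other list with the smallest p, and the 3 genes most like each member detected on all arrays. Alternatives covered background correction, normalization, filter, probe choice, slide, replicate number and each culture left out. Summed marker levels are the log2 of the summed linear values of tested markers.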

Additional observations from a re-analysis of the deposited data

Results flagged for a closer look

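In 3 of 56 groups of 4 cultures examined for the named genes, 1 culture lay far from the other 3 by Dixon's test, and chance alone flags about 1 in 20 groups. Flt1 in WT replicate 1 stood at 7.29, against 8.70 in the nearest WT culture. Itgav in WT replicate 2 stood at 7.93, against 8.40 in the nearest. Nck1 in WT replicate 2 stood at 10.55, against 10.35 in the nearest. No explanation of these values was tested.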

How the results depend on the processing

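Under 19 alternatives, 0 genes passed an adjusted p of 0.05, and the smallest adjusted p of a tested VEGF gene was 0.61. Vegfb, Vegfc, Pgf, Flt1 and Flt4 kept their sign under every alternative in which they were tested, with log2 fold changes of -0.71 to -0.16, 0.03 to 0.55, 0.06 to 1.11, 0.12 to 0.74 and -0.82 to -0.02. Flt4 could not be tested among genes detected on all 8 arrays. When slide was a block or only slide 1 was used, which is the same estimate because slide 2 held KO arrays only, Vegfa turned to 0.024, Vegfd to -0.75 and Nrp2 to 0.42. The mean of all kept probes turned Nrp2 to 0.005. When 1 culture was left out, Vegfa ranged from -0.53 to -0.05, Vegfd from -0.37 to 0.50 and Nrp2 from -0.47 to 0.002. The difference of Kdr, with no model, ranged from -0.43 to -0.01. Fold changes of dimmer list genes shrank when the background correction changed. In the authors' values and with control-like probes as negative controls, Nos3 was 0.17 and 0.02, Hif3a 0.22 and 0.03, Pfkfb3 0.21 and 0.02, Mxi1 -0.31 and -0.06, and Nr4a2 0.12 and 0.01. Tek, the floxed gene, was -0.61 and -0.09. Within slide 1, Ptpn1 was -0.17, Mxi1 -0.13, Nid2 0.13, Sdc4 0.20, Nos3 0.82 and Pfkfb3 0.80. The causes of these changes were not tested. The replicate numbers are shared by WT and KO, but the labels do not say that they mark a shared litter or day. Deviations from the group means correlated between same-numbered cultures at 0.32, 0.21, 0.29 and 0.06. Each culture was compared only with the 4 cultures of the other group. In that comparison all 8 correlated best with the culture of their own number, a hint from the data and not the design. With the replicate number as a block 0 genes passed the adjusted threshold as well, and 1005 genes had an unadjusted p under 0.05 against 681 without it. Among named list genes, Ets1, Thbs1 and Nos3 had an unadjusted p under 0.05 in limma with the block (0.017, 0.020 and 0.0495) and not without it, with adjusted p of 0.55, 0.55 and 0.59. In the block fit, Pgf stood at 0.72 with an adjusted p of 0.62 and Flt4 at -0.55 with an adjusted p of 0.61. Signal near background limits what can be said of Kdr and Flt4.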

Other observations

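Markers of other cell types also varied between the cultures. Of 16 tested macrophage and leukocyte markers, 16 were lower in KO by sign, against 5971 of all 11859 genes tested. Their median log2 fold change was -0.96, with 0 past the adjusted threshold. Their summed log2 level was 15.45, 15.90, 12.55 and 13.66 across the WT cultures in replicate order, against 15.03, 14.62, 12.05 and 13.08 across the KO cultures. KO replicates 1 and 2 lay above WT replicates 3 and 4, so the groups overlapped. At each replicate number this sum was lower in KO than in WT, but the labels do not say that the numbers pair cultures. Of 9 tested fibroblast markers, 9 were lower in KO by sign, with a median of -0.51 and 0 past the threshold, and their summed log2 level was 15.01 to 16.08 in WT and 14.92 to 15.46 in KO. KO replicate 3, which had the lowest sum of both lists, also had the lowest Vegfa and Vegfc and the highest Vegfd and Pgf of the 8 cultures. WT replicate 2, which had the highest sum of both, had the highest Vegfb and the lowest Pgf. The part of these cells in the VEGF values was not tested.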
